A study of Mus musculus with 10 samples.

Results

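The comparison set tumours of a mouse ovarian cancer model treated with an antibody against PD-1 alone beside tumours treated with a CDK4/6 inhibitor alone. The 5 samples of these 2 groups were taken from the 10 of the series by their treatment label. They comprise 2 antibody samples and 3 samples labelled CDK4/6i. Their titles read Abmea and the matching table columns Abema, and no label spells out the agent. The other 5 samples, 2 given PBS and 3 given both agents, entered the model to estimate the spread and appear below as reference values. All samples carry the genotype label WT and the tissue label ovarian cancer, so the groups differ in the labels by treatment alone. The sources used here do not give the cell line of the model, the age of the mice, the doses or the times of treatment. Nothing in the labels ties a sample to an animal of its own, and p-values therefore reflect sample-to-sample spread that may be partly technical.

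PD-1, encoded by Pdcd1, is an inhibitory receptor of activated T cells, and an antibody that keeps it from its ligands PD-L1 and PD-L2 releases T cell activity. CDK4 and CDK6 bind D-type cyclins and phosphorylate the retinoblastoma protein RB, which frees E2F factors to transcribe the genes of DNA replication. Inhibitors of these kinases hold dividing cells before S phase, and tumours under them have been studied for secreted inflammatory factors and for antigen presentation. A direct comparison of the single agents asks which transcripts separate a tumour under checkpoint blockade from a tumour under cell cycle blockade.

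RNA was measured as RPKM, read counts divided by gene length and library total, in libraries of 25188785 to 34230298 reads over the antibody and inhibitor samples. Transcripts of other organs differed between these 5 libraries far beyond counting error. Genes of the exocrine pancreas (17 enzymes, secreted proteins and factors of acinar cells) took 13.57% of all reads in antibody sample 1 (95% exact binomial interval 13.56% to 13.58%) and 5.57% in sample 2 (5.567% to 5.582%). In the inhibitor samples that share was 0.00807%, 0.00865% and 0.216%, and it was at most 0.00783% in the PBS samples. Skeletal muscle genes, a list of 16 with the contractile proteins, took 10.87% (10.86% to 10.89%) and 9.67% (9.655% to 9.678%) of reads in inhibitor samples 1 and 2, against 0.00393% in sample 3. Their share was 0.00367% and 0.702% in the antibody samples and 1.68% and 0.788% in the PBS samples. Hepatocyte genes reached 0.0786% in antibody sample 2 and at most 0.00292% in the other 4 libraries of the comparison. In PBS samples 1 and 2 they took 0.0556% and 0.655%, so the highest share was in a PBS library. These intervals hold counting error alone, because PCR reads that carry no molecular identifiers are not independent molecules.

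Both antibody libraries were therefore rich in pancreatic RNA and 2 of the 3 inhibitor libraries rich in muscle RNA. Inhibitor sample 3 held almost no muscle RNA and less pancreatic RNA than either antibody sample, and it stood apart from the other inhibitor samples in inflammatory genes, as described further on. The labelled tissue was checked with 14 genes of ovarian tumour epithelium and mesothelium, which took 0.0938% to 0.140% of reads in the 5 libraries, with at most 1 of the 14 at 0 in a library. The part of pancreatic or muscle RNA in the gene differences below was not tested. Results are given with and without inhibitor sample 3, and with the 3 muscle-rich libraries (inhibitor samples 1 and 2 and combination sample 1) left out.

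**Figure D1:**
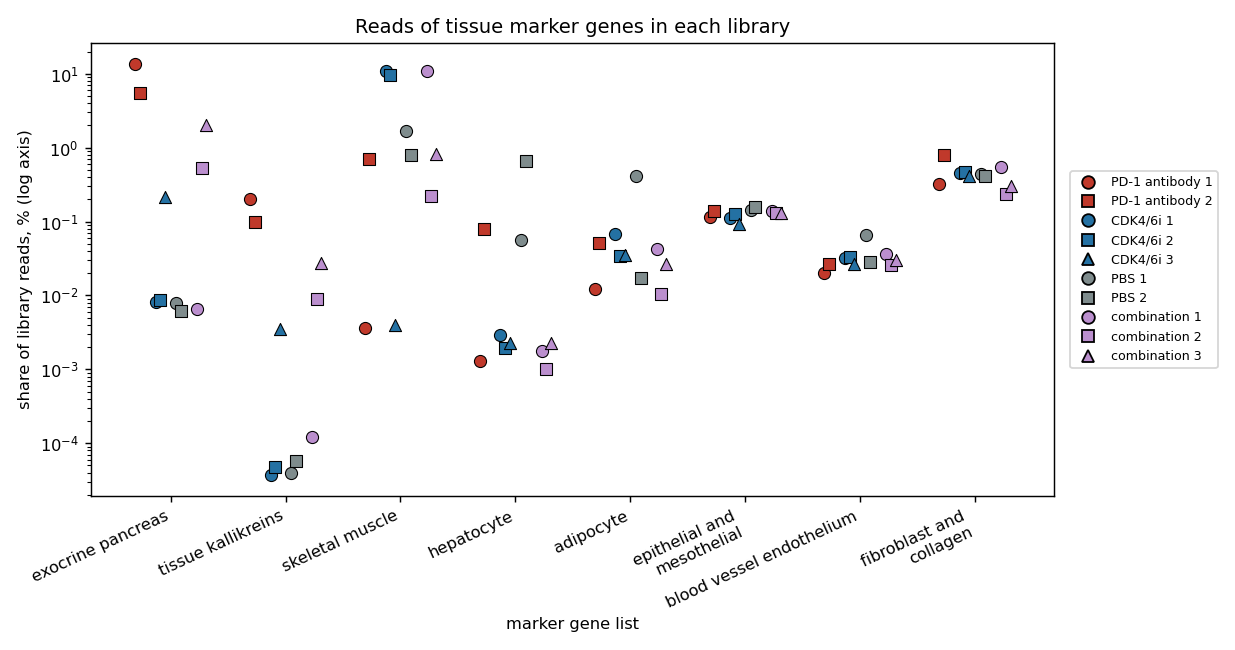
Share of each library's reads, in percent on a log axis, that fell on the genes of 8 tissue marker lists, with 1 point per library of all 4 groups. Pancreas genes take 13.6% and 5.57% of the antibody libraries, and muscle genes take 10.9% and 9.67% of inhibitor libraries 1 and 2.

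Of 19368 genes tested with limma on log2(RPKM + 0.5), 1 gene, Klk1b11, passed an adjusted p of 0.05 (0.00516% of genes), and it rose with the antibody relative to the inhibitor. None was lower past that threshold (0 genes), and limma with voom on recovered reads called 0 genes in either direction, with 2374 at an unadjusted p under 0.05. On the RPKM scale 2217 genes had an unadjusted p under 0.05 (11.4%), 998 of them higher with the antibody (5.15%) and 1219 lower (6.29%), where 968.4 genes are expected if no gene differs. The antibody and inhibitor samples did not overlap for 5650 genes (29.2%), with the antibody above in 2757 (14.2%) and below in 2893 (14.9%). The log2 difference was above 0 for 54.1% of genes, and its median over all genes was 0.05. With 2 samples against 3, an exact two-sided permutation test of a single gene cannot give a p below 0.1. Differences on the log2(RPKM + 0.5) scale, antibody minus inhibitor, understate the change of genes with low values.

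Several of the genes with the lowest p on the antibody side are known from the pancreas. Klk1b11, a member of the tissue kallikrein family of serine proteases (chr7:43995877-43999875 on GRCm38, plus strand), read 9.19 and 7.38 RPKM in the antibody samples and 0, 0 and 0.242 RPKM in the inhibitor samples. The groups did not overlap, and the PBS samples were at 0. The means were 8.29 ± 1.28 RPKM (SD, n = 2) and 0.0805 ± 0.139 RPKM (SD, n = 3), a log2 difference of 3.94 (SE 0.35, limma adjusted p = 0.0414). The gene kept this call under 10 of 22 other settings, and the call was lost without either antibody sample, any inhibitor sample, either PBS sample or combination sample 2, with adjusted p from 0.0658 to 0.383. Reads of the near-identical Klk1b copies may be shared out between them by the counting, so the values of single copies are uncertain.

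The table holds 13 kallikreins, of which 7 passed the filter on low values. In each PBS and inhibitor sample 8 to 12 of the 13 were at 0, so members passed through the libraries of antibody-treated tumours and their direction was set by the filter. Klk1b4 read 9.0 and 5.50 RPKM against 0 in all 3 inhibitor samples, which is at least 164-fold higher against a floor of 3 reads over the inhibitor group (log2 difference 3.92, SE 0.40, limma adjusted p = 0.0624). Klk1b5 read 30.2 and 21.3 RPKM against 0, 0 and 0.300 RPKM (5.47, SE 0.74, limma adjusted p = 0.0999). The family took 0.20003% and 0.0977% of reads in the antibody samples and at most 0.00357% in the inhibitor samples, the highest of these in inhibitor sample 3, which also held the most pancreatic RNA of its group.

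All 17 exocrine pancreas genes stood higher in both antibody samples than in every inhibitor sample (14.2% of all genes on that side). Their median log2 difference was 8.70, and none passed the adjusted threshold. Cela1, a pancreatic elastase, read 26932 and 11411 RPKM against 50.8, 53.7 and 358 RPKM (log2 difference 7.46, SE 1.70, limma adjusted p = 0.246). Inhibitor sample 3 was the highest of its group and antibody sample 1 the highest of all 5. The same order held for Zg16, a protein of zymogen granules, at 1082 and 439 RPKM against 3.38, 4.20 and 17.1 RPKM. It also held for the elastase Cela3b (1121 and 417 RPKM against 1.71, 0.835 and 17.3 RPKM) and the secreted Reg1 (682 and 254 RPKM against 0, 0 and 7.61 RPKM). The SE of these differences ran from 1.33 for Zg16 to 2.09 for Reg1. Skeletal muscle genes were the reverse in sign, all 16 lower with the antibody with a median of -3.42, but every one overlapped between the groups, and the median was 2.86 with inhibitor sample 3 alone and 0.14 without antibody sample 1. Acta1, skeletal actin, read 0.372 and 379 RPKM against 2740, 2493 and 0.0905 RPKM.

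Factors that drive acinar transcription were also read in the antibody samples. Ptf1a, the helix-loop-helix subunit of the acinar complex PTF1, read 2.50 and 1.007 RPKM against 0 in every inhibitor sample (limma adjusted p = 0.0999). Rbpjl, its partner subunit, read 22.4 and 9.26 RPKM against 0.161, 0.0208 and 0.242 RPKM (log2 difference 4.56, SE 0.69, limma adjusted p = 0.0999). Both antibody samples lay above every inhibitor sample for each of them. Neither gene reached 0.5 RPKM in an inhibitor sample, so each passed the filter through libraries outside that group. Their separation is therefore no independent support, and both were chosen after their values were seen. Ptf1aos, listed antisense to Ptf1a, read 3.05 and 1.28 RPKM against 0, and the sources used here do not say whether reads were counted by strand.

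The promoters below show the letters that this complex is known to bind, an E-box (CANNTG) beside a TC-box (TTTCCC). They are the 250 bases before the start from RefSeq on GRCm38.p6, written 5′ to 3′ on the gene's strand: Cela1 at chr15:100687921-100688170 (minus strand), Ctrb1, a chymotrypsinogen, at chr8:111691011-111691260 (minus strand), and Klk1b11 at chr7:43995627-43995876 (plus strand). Capitals mark an E-box and a TC-box that together take up at most 30 bases from the first letter to the last, and in Klk1b11, which holds no such pair, the single E-box.
Cela1: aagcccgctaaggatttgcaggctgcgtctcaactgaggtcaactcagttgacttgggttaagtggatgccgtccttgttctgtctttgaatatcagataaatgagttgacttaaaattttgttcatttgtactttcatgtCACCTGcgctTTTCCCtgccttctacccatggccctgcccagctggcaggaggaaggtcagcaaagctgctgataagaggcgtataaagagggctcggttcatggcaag
Ctrb1: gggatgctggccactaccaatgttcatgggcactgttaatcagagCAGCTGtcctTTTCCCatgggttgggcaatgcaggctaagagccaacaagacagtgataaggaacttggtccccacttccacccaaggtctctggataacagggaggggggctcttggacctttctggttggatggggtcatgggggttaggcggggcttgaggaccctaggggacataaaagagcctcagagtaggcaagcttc
Klk1b11: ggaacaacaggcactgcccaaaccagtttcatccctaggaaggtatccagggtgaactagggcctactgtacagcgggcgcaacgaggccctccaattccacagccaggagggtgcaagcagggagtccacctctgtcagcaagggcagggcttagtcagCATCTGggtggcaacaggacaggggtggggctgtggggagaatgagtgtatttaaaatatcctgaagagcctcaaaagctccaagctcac
The pair begins 109 bases before the start in Cela1 and 205 bases before it in Ctrb1. Searched on both strands, it was found in 4 of the 14 pancreas genes with a promoter in the table (28.6%), in 0 of 13 kallikreins and in 1141 of 32851 promoters in all (3.47%). CANNTG reads the same on both strands, the counted pairs do not overlap each other's letters, and TTTCCC alone was in 7 of the 14 and in 21.9% of all promoters. A match describes letters and is not a measured site. Ctrb1 itself read 2791 and 1037 RPKM with the antibody against 0.169, 0.543 and 53.03 RPKM with the inhibitor.

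Other genes with the lowest p on the antibody side did not pass the threshold. Ggh, the gamma-glutamyl hydrolase that trims folate, read 46.1 and 31.4 RPKM against 5.63, 5.68 and 6.37 RPKM, with PBS samples at 7.47 and 6.33 RPKM (log2 difference 2.59, SE 0.29, limma adjusted p = 0.0624). Gal, the neuropeptide galanin, read 33.1 and 14.3 RPKM against 0, 0 and 0.0976 RPKM. Reg3a, a secreted lectin of gut and pancreas, read 5.46 and 11.3 RPKM against 0, 0 and 0.0842 RPKM. Combination samples 1, 2 and 3 read 7.41, 11.3 and 15.2 RPKM for Ggh and 0.0949, 0.334 and 2.56 RPKM for Gal. For Reg3a they read 0, 0.793 and 1.07 RPKM, and their pancreas share rose in the same order (0.0066%, 0.532% and 2.03%). In antibody sample 1, the richer in pancreatic RNA, Ggh and Gal were higher and Reg3a lower than in sample 2. A link with pancreatic RNA was not tested. In these 3 genes both antibody samples were above all inhibitor samples. Gal and Reg3a stayed under 0.5 RPKM in every inhibitor and PBS sample. They passed the filter through antibody-treated tumours, so their separation is no independent support. Tead2, a DNA-binding partner of the Hippo pathway's YAP, read 5.04 and 3.03 RPKM against 0.479, 0.506 and 0.457 RPKM (2.17, SE 0.28, limma adjusted p = 0.0860). The immunoglobulin segment Ighd2-7 and the microRNA gene Mir141 also belong here, but they rest on 3 and 7 reads over the antibody samples and none over the inhibitor samples.

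On the inhibitor side the lowest p belonged to Erdr1, listed on chromosome Y in the region shared with X. It read 148 and 151 RPKM with the antibody and 479, 467 and 345 RPKM with the inhibitor, with PBS samples at 416 and 271 RPKM (log2 difference -1.51, SE 0.23, limma adjusted p = 0.0999). The same region of X and Y holds Mid1, a ubiquitin ligase of microtubules, at 6.80 and 7.03 RPKM against 14.9, 13.4 and 13.9 RPKM (-0.97, SE 0.17, limma adjusted p = 0.121), and the counting may share reads between its X and Y copies. In both genes the antibody samples were below every inhibitor and every PBS sample.

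Other genes on that side have diverse known roles. Gadd45a, which is induced by DNA damage and restrains the cell cycle, read 15.0 and 15.5 RPKM against 31.8, 33.1 and 39.4 RPKM (log2 difference -1.16, SE 0.20, limma adjusted p = 0.121). Hspb8, a small heat shock protein of selective autophagy, read 33.4 and 33.6 RPKM against 65.7, 56.5 and 83.4 RPKM (-1.003, SE 0.17, limma adjusted p = 0.121). Mgarp, a mitochondrial transport protein, read 1.58 and 1.36 RPKM against 5.85, 4.82 and 6.59 RPKM (-1.66, SE 0.28, limma adjusted p = 0.114). All 3 inhibitor samples were above both antibody samples for each gene, inhibitor sample 3 being the highest. Calr4, a calreticulin-like chaperone, read 5.15 and 3.64 RPKM against 11.4, 10.5 and 12.7 RPKM, and Rrp12, a factor of ribosome assembly, read 8.87 and 8.77 RPKM against 18.6, 18.9 and 19.9 RPKM.

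**Figure D2:**
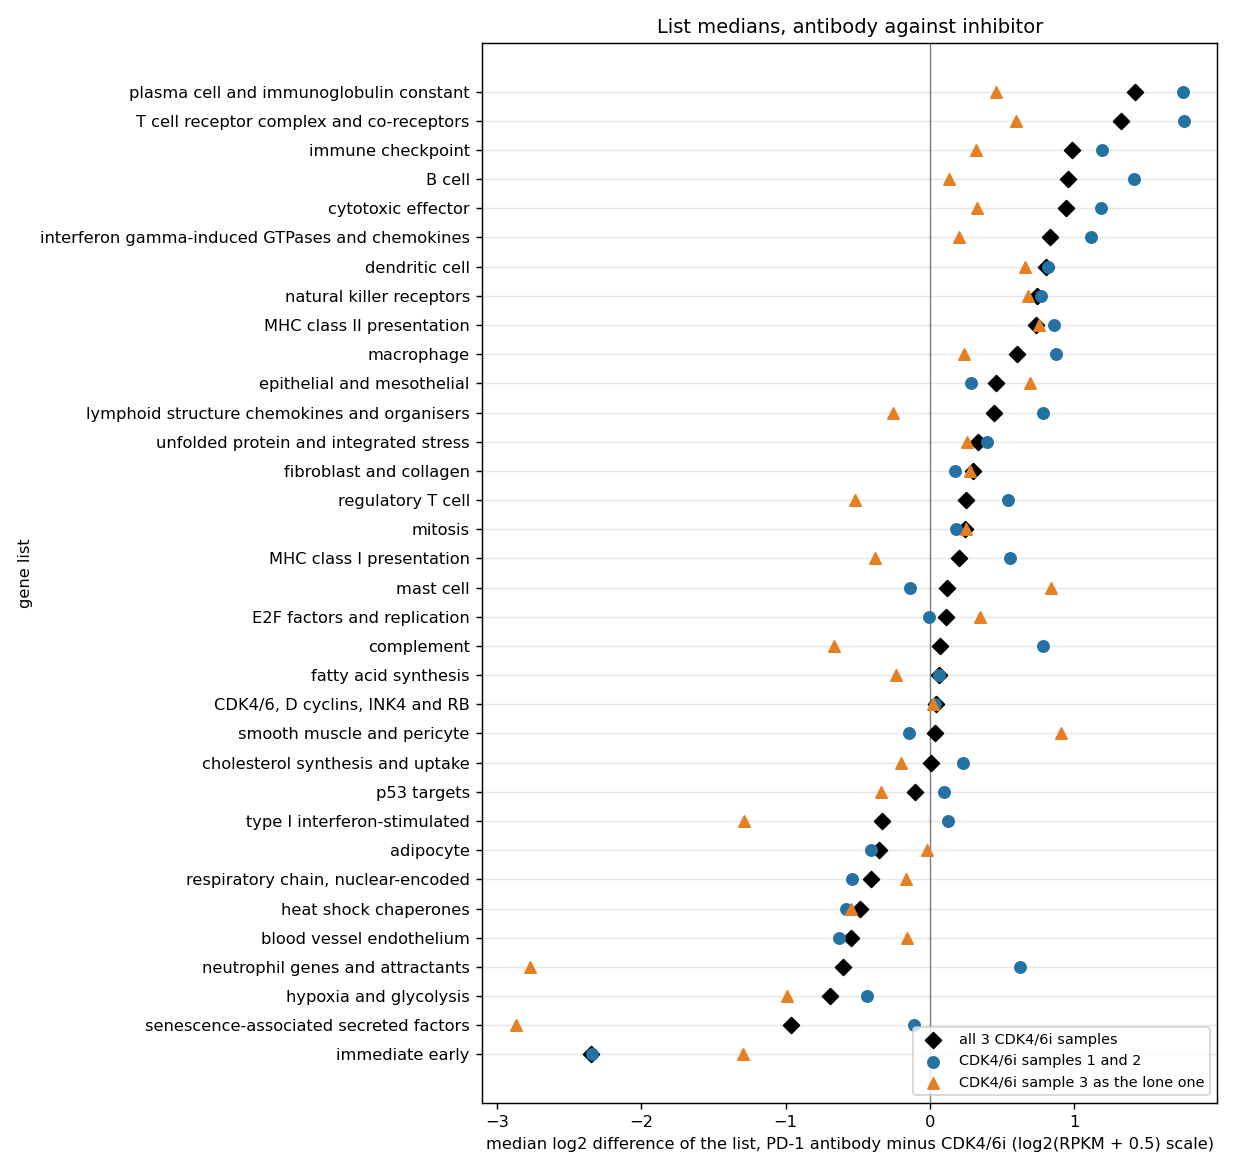
Median log2 difference (antibody minus inhibitor, on the log2(RPKM + 0.5) scale) of each gene list other than the 4 of muscle, pancreas, kallikreins and liver, with all inhibitor samples (diamonds), with inhibitor samples 1 and 2 (circles), and with inhibitor sample 3 as the lone inhibitor sample (triangles). T cell genes lie at 1.32, 1.76 and 0.59 in that order, and immediate early genes at -2.35, -2.34 and -1.30.

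The agents' own pathways were read next, beginning with the PD-1 axis. Pdcd1 read 9.80 and 5.16 RPKM in the antibody samples and 1.02, 1.502 and 6.89 RPKM in the inhibitor samples, with PBS samples at 1.32 and 2.99 RPKM. Inhibitor sample 3 lay between the antibody samples, so the groups overlapped (log2 difference 1.44, SE 0.90, limma adjusted p = 0.554). Cd274, which encodes PD-L1, read 26.9 and 12.1 RPKM against 2.31, 4.46 and 42.8 RPKM, the highest value being in inhibitor sample 3 (1.14, SE 1.25, limma adjusted p = 0.709). Without the muscle-rich libraries its difference was -1.22. Pdcd1lg2, which encodes PD-L2, was near the detection limit at 1.04 and 0.497 RPKM against 0.0450, 0.145 and 0.359 RPKM.

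T cell genes stood higher with the antibody as a list, and none passed the adjusted threshold. Of 20 genes for the T cell receptor complex and its co-receptors, 19 passed the filter. All 19 had a positive log2 difference, and 16 did not overlap between the groups (14.2% of all genes on that side). An unadjusted p under 0.05 was reached by 6 (5.15% of all genes on that side). The median was 1.32, against 0.05 over all genes. It was 1.76 without inhibitor sample 3 and 0.59 with that sample as the only inhibitor sample. In bulk tissue, fewer cells of a type and less RNA per cell cannot be told apart.

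Cd8a, the co-receptor of cytotoxic T cells, read 4.04 and 2.01 RPKM with the antibody and 0.153, 0.589 and 0.525 RPKM with the inhibitor, with PBS samples at 0.722 and 0.690 RPKM. Both antibody samples were above every inhibitor and PBS sample (log2 difference 1.91, SE 0.60, limma adjusted p = 0.335). Its partner chain Cd8b1 read 8.58 and 4.24 RPKM against 0.599, 0.803 and 2.18 RPKM (2.07, SE 0.71, limma adjusted p = 0.353). Cd3g, a signalling chain of the receptor, read 9.56 and 6.03 RPKM against 1.06, 2.09 and 2.26 RPKM (1.86, SE 0.62, limma adjusted p = 0.345), and the kinase Lck read 8.42 and 5.64 RPKM against 0.657, 1.29 and 3.89 RPKM. For these genes antibody sample 1 was the highest library and inhibitor sample 1 the lowest of the 5. Cd4, the helper cell co-receptor, read 8.82 and 6.48 RPKM against 0.688, 1.06 and 6.52 RPKM, and here inhibitor sample 3 reached the antibody samples.

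Of 15 cytotoxic effector genes 14 passed the filter, 13 of them higher and 1 lower with the antibody, with a median of 0.94. The antibody lay above without overlap for 7 of them (14.2% of all genes). Gzmk and Eomes had inhibitor means of 0.155 and 0.0696 RPKM, so they passed the filter through libraries outside the inhibitor group. For such members the direction was partly set by the filter, and the counts are no independent support. The median was 1.19 without inhibitor sample 3 and 0.32 with it alone. Ctsw, a protease of cytotoxic lymphocytes, read 5.74 and 5.07 RPKM against 0.541, 0.741 and 2.31 RPKM (log2 difference 1.94, SE 0.61, limma adjusted p = 0.333). Klrd1, a receptor chain of natural killer and killer T cells, read 2.53 and 1.66 RPKM against 0.491, 0.372 and 0.705 RPKM. The antibody samples were above all inhibitor samples in both. Granzyme B and perforin overlapped between the groups. Gzmb read 3.22 and 0.597 RPKM against 0.365, 0.224 and 3.87 RPKM, and Prf1 read 3.10 and 0.782 RPKM against 0.144, 0.155 and 1.69 RPKM. Without the muscle-rich libraries their differences were -1.11 and -0.03. Ifng, the cytokine interferon gamma, was at 0.552 and 0.411 RPKM against 0, 0 and 0.0576 RPKM. It stayed under 0.5 RPKM in every inhibitor and PBS sample and passed the filter through antibody-treated tumours, so its separation is no independent support.

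Inhibitory receptors and other checkpoint genes leaned the same way. Of 15 tested, 13 were higher and 2 lower, and the median was 0.98 (1.19 without inhibitor sample 3 and 0.32 with it alone). The antibody was above without overlap in 7 (14.2% of all genes). Vsir, the checkpoint protein VISTA, read 8.32 and 10.04 RPKM against 3.31, 3.54 and 7.03 RPKM (log2 difference 0.98, SE 0.35, limma adjusted p = 0.360). Entpd1, the ectoenzyme CD39, read 8.63 and 7.07 RPKM against 2.25, 2.16 and 4.93 RPKM, and Tigit read 12.9 and 7.95 RPKM against 1.34, 2.39 and 7.87 RPKM. In each, inhibitor sample 3 was the highest of its group and still below the antibody samples. Ctla4 lay the other way by its means, at 2.34 RPKM with the antibody and 4.67 RPKM with the inhibitor, but its groups overlapped. The checkpoint list level was 2.44 in inhibitor sample 3, above the antibody samples at 1.96 and 1.64. Of 9 regulatory T cell genes tested, 7 were higher and 2 lower, with a median of 0.25, and the median turned to -0.52 with inhibitor sample 3 alone. Foxp3, their defining factor, read 3.75 and 4.06 RPKM against 2.93, 2.89 and 3.86 RPKM (0.25, SE 0.30, limma adjusted p = 0.724).

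**Figure D3:**
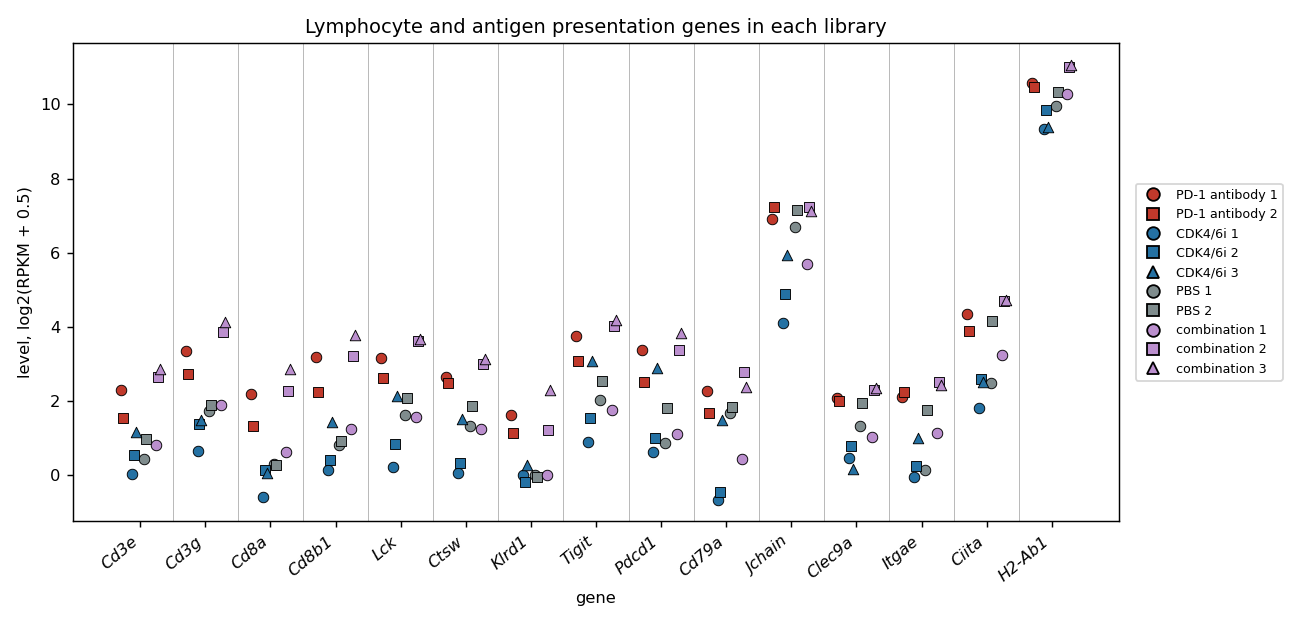
Level of 15 lymphocyte and antigen presentation genes as log2(RPKM + 0.5), with 1 point per library of all 4 groups. Cd8a lies at 4.04 and 2.01 RPKM in the antibody libraries and at 0.153 to 0.589 RPKM in the inhibitor libraries, while Pdcd1 of inhibitor library 3 lies between the antibody libraries.

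B cell genes followed, with 15 of 17 listed genes tested, 14 higher and 1 lower. Without overlap were 6, all with the antibody above (14.2% of all genes), and the median was 0.95. That median was 1.41 without inhibitor sample 3 and 0.13 with it alone. The list level was -0.54 and -0.38 in inhibitor samples 1 and 2 and -0.27 in combination sample 1, all muscle-rich. It was 2.16 and 1.60 in combination samples 2 and 3 and 0.45 and 1.09 in the PBS samples. A link of this level with muscle RNA was not tested. Cd79a, which signals for the B cell receptor, read 4.31 and 2.65 RPKM against 0.127, 0.218 and 2.29 RPKM (log2 difference 1.85, SE 0.80, limma adjusted p = 0.432). Inhibitor samples 1 and 2 were the low libraries. Fcrla, an Fc receptor-like protein of germinal centre B cells, read 2.00 and 2.14 RPKM against 0.0424, 0.410 and 0.836 RPKM.

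Of 18 antibody-secreting cell genes tested, 16 were higher and 2 lower. The antibody was above without overlap in 11 (14.2% of all genes), and 8 had an unadjusted p under 0.05 on that side (5.15%). Their median of 1.42 was 1.75 without inhibitor sample 3 and 0.46 with it alone. Derl3, which removes misfolded proteins from the endoplasmic reticulum of secretory cells, read 9.33 and 8.40 RPKM against 2.35, 2.05 and 2.89 RPKM (log2 difference 1.68, SE 0.32, limma adjusted p = 0.168). Fkbp11, a folding enzyme of the same compartment, read 48.3 and 23.2 RPKM against 17.9, 12.4 and 10.6 RPKM (1.30, SE 0.32, limma adjusted p = 0.252). Acinar cells express such genes too, and antibody sample 1, which held more pancreatic RNA, was the higher library in both. The part of pancreatic RNA in Derl3 and Fkbp11 was not tested. Jchain, the joining chain of IgA and IgM, read 119 and 149 RPKM against 16.6, 29.0 and 61.1 RPKM, with PBS samples at 102 and 141 RPKM (2.09, SE 0.59, limma adjusted p = 0.292). Here antibody sample 2 was the higher library, and the inhibitor samples were below the PBS samples. The light chain gene Iglc2, whose reads may be shared with its copies, read 21.3 and 24.6 RPKM against 4.41, 11.2 and 10.8 RPKM, with PBS samples at 37.0 and 36.3 RPKM.

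Genes of lymphoid structures split. Of 19 tested, 12 were higher and 7 lower with the antibody. Without overlap were 5 with the antibody above and 1 with it below, where all genes gave 14.2% and 14.9%. The median of 0.44 turned to -0.26 with inhibitor sample 3 alone. Ltb, the lymphotoxin beta chain of lymphocytes, read 4.19 and 3.91 RPKM against 0.488, 0.524 and 2.38 RPKM (log2 difference 1.67, SE 0.71, limma adjusted p = 0.427). Its receptor Ltbr, found on stromal and myeloid cells, lay the other way at 9.99 and 10.6 RPKM against 24.7, 26.5 and 15.6 RPKM (-1.04, SE 0.34, limma adjusted p = 0.337). The groups did not overlap for ligand or receptor. Cxcl13, which draws B cells to follicles, read 2.43 and 7.67 RPKM against 0.901, 2.49 and 44.8 RPKM. Ccl21a, which draws naive T cells and dendritic cells and shares sequence with copies, read 4.67 and 8.80 RPKM against 27.3, 16.5 and 3.63 RPKM. Inhibitor sample 3 was the highest library for Cxcl13 and the lowest for Ccl21a.

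Antigen presentation by class II molecules had a positive median in the main fit and in all 22 other settings. All 11 genes tested had a positive difference, and 8 did not overlap (14.2% of all genes on that side). The median of 0.73 was 0.86 without inhibitor sample 3 and 0.76 with it alone. Ciita, the master regulator of class II transcription, read 19.9 and 14.2 RPKM against 2.96, 5.44 and 5.16 RPKM (log2 difference 1.83, SE 0.59, limma adjusted p = 0.337). H2-Ab1, a class II beta chain, read 1527 and 1412 RPKM against 650, 918 and 675 RPKM, with PBS samples at 991 and 1288 RPKM (0.99, SE 0.28, limma adjusted p = 0.289). H2-Aa, its alpha chain, read 118 and 117 RPKM against 64.1, 99.6 and 56.6 RPKM. All 3 inhibitor samples were below both antibody samples in each of these genes. Of 16 class I presentation genes 12 were higher and 4 lower, and 1 did not overlap, with the antibody below (14.9% of all genes). Their median of 0.20 turned to -0.05 without inhibitor sample 1 and -0.38 without the muscle-rich libraries. H2-K1, a class I heavy chain with near-identical relatives, read 1394 and 1326 RPKM against 500, 644 and 1978 RPKM, so that inhibitor sample 3 exceeded both antibody samples and its difference without the muscle-rich libraries was -0.54.

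Dendritic cell genes were close in size with and without inhibitor sample 3. Of 14 listed genes 12 passed the filter, 11 higher and 1 lower, with 8 not overlapping and the antibody above (14.2% of all genes). The median was 0.81 (0.82 without inhibitor sample 3 and 0.65 with it alone). Clec9a, a receptor for dead cells on cross-presenting dendritic cells, read 3.68 and 3.50 RPKM against 0.876, 1.22 and 0.601 RPKM, with PBS samples at 1.98 and 3.30 RPKM (log2 difference 1.57, SE 0.42, limma adjusted p = 0.276). Itgae, the integrin CD103 of these cells and of resident T cells, read 3.80 and 4.23 RPKM against 0.460, 0.676 and 1.48 RPKM (1.79, SE 0.57, limma adjusted p = 0.336). Batf3, the factor that this lineage needs, read 5.82 and 5.58 RPKM against 2.25, 3.83 and 2.78 RPKM, and the chemokine receptor Xcr1 read 1.23 and 0.853 RPKM against 0.116, 0.446 and 0.257 RPKM. None of the 4 genes, which were named by lowest p in this comparison, overlapped between the groups. Xcr1 stayed under 0.5 RPKM in every inhibitor sample and passed the filter through libraries outside that group.

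Macrophage genes were 19 higher and 1 lower of 20 tested, 10 not overlapping with the antibody above (14.2% of all genes). Their median was 0.60, with 0.87 without inhibitor sample 3 and 0.23 with it alone. The list level was 3.34 and 3.75 in the antibody samples, 2.19, 1.95 and 4.14 in the inhibitor samples. In combination samples 1, 2 and 3 it was 2.74, 3.70 and 3.66. Ccr2, the receptor that brings monocytes from blood, read 2.12 and 3.98 RPKM against 0.733, 0.693 and 1.51 RPKM (log2 difference 1.26, SE 0.37, limma adjusted p = 0.308). Adgre1, which encodes F4/80, read 10.1 and 9.39 RPKM against 1.28, 1.71 and 7.08 RPKM, and Apoe read 2182 and 2163 RPKM against 798, 975 and 1441 RPKM. Inhibitor sample 3 was the nearest to the antibody samples in these 3 genes. Cx3cr1, the fractalkine receptor, read 15.0 and 15.8 RPKM against 6.22, 8.53 and 6.12 RPKM, with that sample the lowest.

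GTPases and chemokines induced by interferon gamma were 15 higher and 2 lower of 17 tested, 7 not overlapping with the antibody above (14.2% of all genes). Their median was 0.83 (1.12 without inhibitor sample 3 and 0.20 with it alone). Cxcl9, which attracts activated T cells, read 61.9 and 31.2 RPKM against 10.2, 17.9 and 19.6 RPKM, the antibody samples being above all inhibitor samples (log2 difference 1.49, SE 0.79, limma adjusted p = 0.5005). The GTPase Tgtp2 read 49.3 and 31.5 RPKM against 8.76, 14.6 and 27.1 RPKM. Cxcl10 overlapped, at 4.34 and 1.82 RPKM against 1.25, 2.36 and 5.77 RPKM (0.09, SE 0.68, limma adjusted p = 0.965).

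Type I interferon-stimulated genes had a median whose sign turned with 1 sample. Of 24 tested, 5 were higher and 19 lower with the antibody. The groups did not overlap for 1 with the antibody above and 5 with it below, where all genes gave 14.2% and 14.9%. The median of -0.33 was 0.13 without inhibitor sample 3 and -1.29 with it alone. Isg15, a ubiquitin-like modifier, read 13.5 and 11.1 RPKM against 13.9, 17.7 and 46.9 RPKM, and Irf7, the factor that amplifies interferon production, read 9.11 and 7.66 RPKM against 9.52, 9.85 and 44.9 RPKM (log2 difference -0.92, SE 0.66, limma adjusted p = 0.592). Inhibitor samples 1 and 2 were close to the antibody samples and sample 3 was far above.

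Inhibitor sample 3 also held neutrophil attractants and secreted inflammatory factors at levels seen in no other library. Cxcl1, which recruits neutrophils, read 2.17 and 2.62 RPKM with the antibody and 8.68, 6.31 and 519 RPKM with the inhibitor, and no other library passed 23.4 RPKM (log2 difference -3.47, SE 1.76, limma adjusted p = 0.492). Cxcl2 read 0.0921 and 0.0565 RPKM against 0.716, 0.576 and 38.4 RPKM. The groups did not overlap in either gene, and sample 3 set the size of the difference. S100a8, a calcium-binding protein of neutrophils, read 0.914 and 0.0842 RPKM against 0.0533, 0.229 and 6.01 RPKM, with overlap. The neutrophil list had a median of -0.60 over 11 tested genes, 0.62 without that sample and -2.78 with it alone.

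Of 17 senescence-associated secreted factors tested, 3 were higher and 14 lower with the antibody, 2 and 8 not overlapping (14.2% and 14.9% of all genes). Their median was -0.97. Without inhibitor sample 3 it was -0.11, and with that sample alone -2.87. Mmp3, a matrix protease, read 0.846 and 2.69 RPKM against 6.27, 6.19 and 14.7 RPKM (log2 difference -2.09, SE 0.90, limma adjusted p = 0.430). Igfbp3, a carrier of insulin-like growth factors, read 6.45 and 8.73 RPKM against 15.9, 16.9 and 12.1 RPKM. Another carrier, Igfbp5, lay the other way at 414 and 754 RPKM against 237, 274 and 192 RPKM, with PBS samples at 363 and 534 RPKM (1.27, SE 0.30, limma adjusted p = 0.2498). None of these 3 genes overlapped between the groups, and here samples 1 and 2 shared the direction of sample 3.

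For the pathway that the inhibitor targets, the list of CDK4/6, D cyclins, their inhibitors and RB proteins was split, with 8 genes higher and 7 lower of 15 and a median of 0.04, which was -0.02 under median-ratio scaling. Cdk4 read 12.5 and 15.1 RPKM with the antibody and 18.4, 21.5 and 13.9 RPKM with the inhibitor (log2 difference -0.35, SE 0.22, limma adjusted p = 0.557). Cdk6 read 2.08 and 2.15 RPKM against 1.59, 1.92 and 3.52 RPKM, and Ccnd1, the cyclin D1 gene, 17.2 and 15.6 RPKM against 15.96, 15.98 and 11.98 RPKM. The groups overlapped in all 3. Ccnd3, for cyclin D3, read 3.74 and 3.94 RPKM against 5.18, 5.45 and 6.93 RPKM (-0.54, SE 0.18, limma adjusted p = 0.349). Cdkn2d, for the CDK4/6 inhibitor protein p19-INK4d, read 2.34 and 3.04 RPKM against 7.38, 5.50 and 6.31 RPKM, with PBS samples at 6.24 and 3.44 RPKM (-1.11, SE 0.25, limma adjusted p = 0.240). In both of these the inhibitor samples were above the antibody samples.

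Related inhibitor genes and Rb1 were on the other side. Cdkn2b, for p15-INK4b, read 1.96 and 1.64 RPKM against 0.584, 1.11 and 1.05 RPKM (log2 difference 0.72, SE 0.28, limma adjusted p = 0.395), and Cdkn2a read 0.893 and 1.10 RPKM against 0.631, 0.406 and 0.534 RPKM. Rb1 read 3.40 and 4.10 RPKM against 1.69, 1.82 and 3.03 RPKM (0.70, SE 0.33, limma adjusted p = 0.466). The antibody samples were above all inhibitor samples in these 3 genes. Ccnd2 overlapped at 7.06 and 5.33 RPKM against 6.25, 6.84 and 9.25 RPKM.

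**Figure D4:**
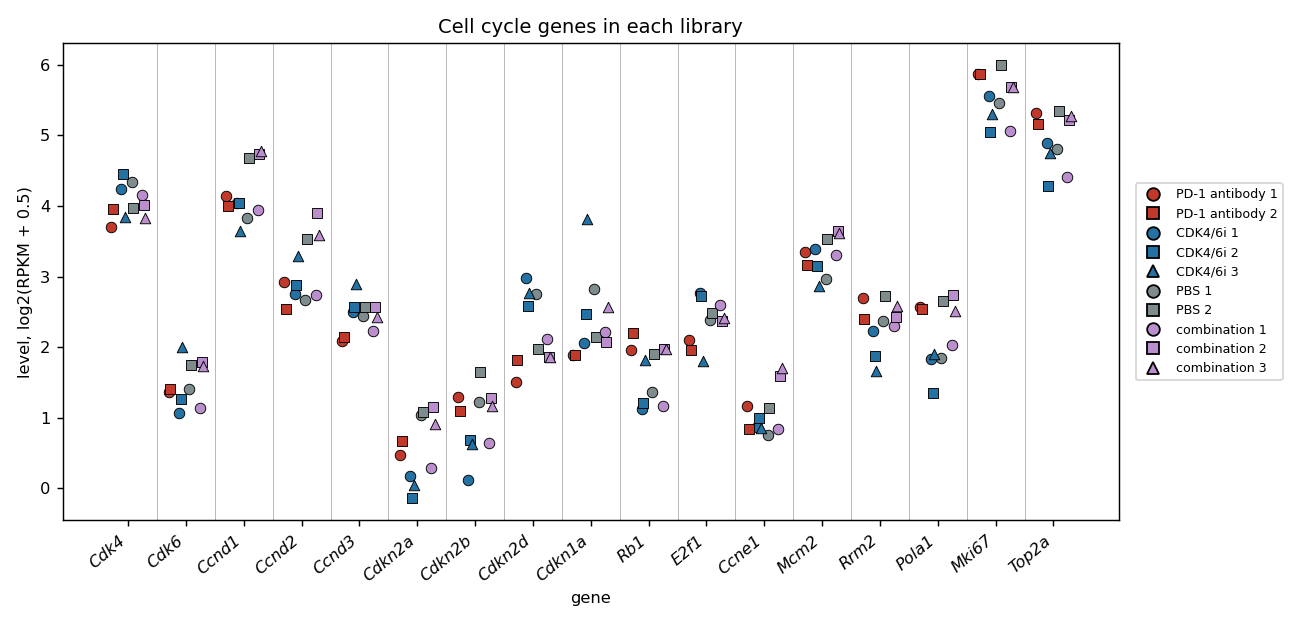
Level of 17 cell cycle genes as log2(RPKM + 0.5), with 1 point per library of all 4 groups. Cdkn2d and Ccnd3 lie higher in all inhibitor libraries than in the antibody libraries, and Mki67 lies lower, at 32.4 to 46.6 RPKM against 58.1 and 58.0 RPKM.

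E2F factors and replication genes had a median of 0.11 over 32 tested, 20 higher and 12 lower. Without overlap were 14 with the antibody above and 2 with it below, where all genes gave 14.2% and 14.9%. The median was -0.01 without inhibitor sample 3. Rrm2, a subunit of ribonucleotide reductase, read 6.00 and 4.78 RPKM against 4.19, 3.17 and 2.68 RPKM (log2 difference 0.62, SE 0.22, limma adjusted p = 0.360). Pola1, the catalytic subunit of DNA polymerase alpha, read 5.43 and 5.30 RPKM against 3.07, 2.06 and 3.26 RPKM (0.85, SE 0.31, limma adjusted p = 0.370), and Mcm5, a subunit of the replicative helicase, 12.8 and 12.3 RPKM against 9.44, 7.55 and 7.97 RPKM. Antibody samples were above inhibitor samples in all 3. E2f1 read 3.81 and 3.38 RPKM against 6.30, 6.14 and 2.996 RPKM, with inhibitor samples 1 and 2 the highest. Ccne1, for cyclin E1, and the helicase gene Mcm2 overlapped, at 1.75 and 1.29 RPKM against 1.33, 1.49 and 1.31 RPKM and at 9.72 and 8.50 RPKM against 10.004, 8.39 and 6.77 RPKM.

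Mitosis genes had a median of 0.24 over 23 tested, 20 higher and 3 lower, and the sign of the median held in all 22 other settings. The antibody was above without overlap in 8 (14.2% of all genes). Mki67, the proliferation marker Ki-67, read 58.1 and 58.0 RPKM against 46.6, 32.4 and 38.8 RPKM, with PBS samples at 43.5 and 63.3 RPKM (log2 difference 0.57, SE 0.26, limma adjusted p = 0.450). Top2a, the topoisomerase of dividing cells, read 39.3 and 35.3 RPKM against 29.0, 18.9 and 26.3 RPKM. Cdk1, the kinase of mitotic entry, read 9.34 and 9.79 RPKM against 7.18, 6.19 and 7.98 RPKM. The antibody samples were above the inhibitor samples in each, and 1 PBS sample was above the antibody samples for Mki67. Among p53 targets, 8 were higher and 10 lower of 18. Aen, a nuclease of apoptosis, read 7.18 and 6.68 RPKM against 9.29, 10.7 and 11.3 RPKM (-0.55, SE 0.15, limma adjusted p = 0.283), and Cdkn1a, for p21, read 3.21 and 3.19 RPKM against 3.66, 5.05 and 13.6 RPKM. Sesn1, a stress-response regulator of growth signalling, was on the other side at 14.1 and 18.7 RPKM against 10.1, 10.3 and 13.6 RPKM.

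Immediate early genes, which respond fast to growth factors, stress and tissue handling, had the lowest median of any list outside muscle at -2.35 over 14 tested. Of these 2 were higher and 12 lower with the antibody, 11 did not overlap on the lower side (14.9% of all genes), and the median was -2.34 without inhibitor sample 3 and -1.30 with it alone. Jun, a subunit of the AP-1 factor, read 41.5 and 50.3 RPKM with the antibody and 618, 491 and 132 RPKM with the inhibitor (log2 difference -2.89, SE 0.98, limma adjusted p = 0.349). Dusp1, a phosphatase that switches off MAP kinases, read 1.67 and 3.27 RPKM against 11.3, 22.2 and 12.7 RPKM (-2.41, SE 0.72, limma adjusted p = 0.316), and Ier3 read 9.26 and 8.37 RPKM against 33.2, 28.9 and 149 RPKM. Every inhibitor sample was above both antibody samples for these genes. The PBS samples differed from each other as widely, with Jun at 620 and 64.1 RPKM and Dusp1 at 24.9 and 3.88 RPKM. Junb read 12.1 and 13.7 RPKM against 54.5, 65.2 and 68.6 RPKM, with the PBS samples at 88.7 and 11.1 RPKM. Within 1 treatment these genes spanned a range as wide as that between the groups.

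Heat shock chaperones lay the same way, with 2 higher and 8 lower of 10, 1 and 6 not overlapping (14.2% and 14.9% of all genes). Their median was -0.49 (-0.58 without inhibitor sample 3 and -0.55 with it alone). Hspb1, a small chaperone, read 46.0 and 56.6 RPKM with the antibody against 248, 147 and 90.9 RPKM with the inhibitor (log2 difference -1.54, SE 0.54, limma adjusted p = 0.360). Hspe1, the mitochondrial co-chaperonin, read 121 and 124 RPKM against 264, 213 and 163 RPKM (-0.77, SE 0.23, limma adjusted p = 0.324). Hspa1a, the inducible HSP70, read 1.68 and 3.50 RPKM against 37.4, 11.98 and 10.5 RPKM, and its reads may be shared with the near-identical Hspa1b. All inhibitor samples were above the antibody samples, inhibitor sample 1 being the highest each time, and the PBS samples for Hspa1a were at 26.3 and 6.31 RPKM. The promoters of these 3 genes are shown because they hold the letters to which the heat shock factor HSF1 is known to bind, GAANNTTC, in capitals. They are 250 bases before the start from RefSeq on GRCm38.p6, 5′ to 3′ on the gene's strand: Hspa1a at chr17:34972157-34972406 (minus strand), Hspb1 at chr5:135887669-135887918 (plus strand) and Hspe1 at chr1:55087898-55088147 (plus strand).
Hspa1a: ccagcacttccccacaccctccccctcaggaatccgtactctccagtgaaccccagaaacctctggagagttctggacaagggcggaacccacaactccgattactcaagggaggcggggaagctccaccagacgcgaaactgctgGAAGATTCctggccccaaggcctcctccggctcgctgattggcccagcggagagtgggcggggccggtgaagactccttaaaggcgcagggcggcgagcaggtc
Hspb1: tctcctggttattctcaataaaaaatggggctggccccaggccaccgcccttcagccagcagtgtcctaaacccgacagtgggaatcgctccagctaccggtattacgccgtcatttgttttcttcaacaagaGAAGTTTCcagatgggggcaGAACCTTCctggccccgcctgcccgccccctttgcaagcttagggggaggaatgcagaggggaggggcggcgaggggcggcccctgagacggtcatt
Hspe1: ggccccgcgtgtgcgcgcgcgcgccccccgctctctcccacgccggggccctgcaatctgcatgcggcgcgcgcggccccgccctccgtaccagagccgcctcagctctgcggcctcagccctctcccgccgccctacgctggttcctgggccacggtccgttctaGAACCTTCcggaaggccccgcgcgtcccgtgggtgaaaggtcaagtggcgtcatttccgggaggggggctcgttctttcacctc
The motif reads the same on both strands. It was in 4 of the 8 chaperone genes with a promoter in the table and in 2199 of 32851 promoters in all (6.69%).

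**Figure D5:**
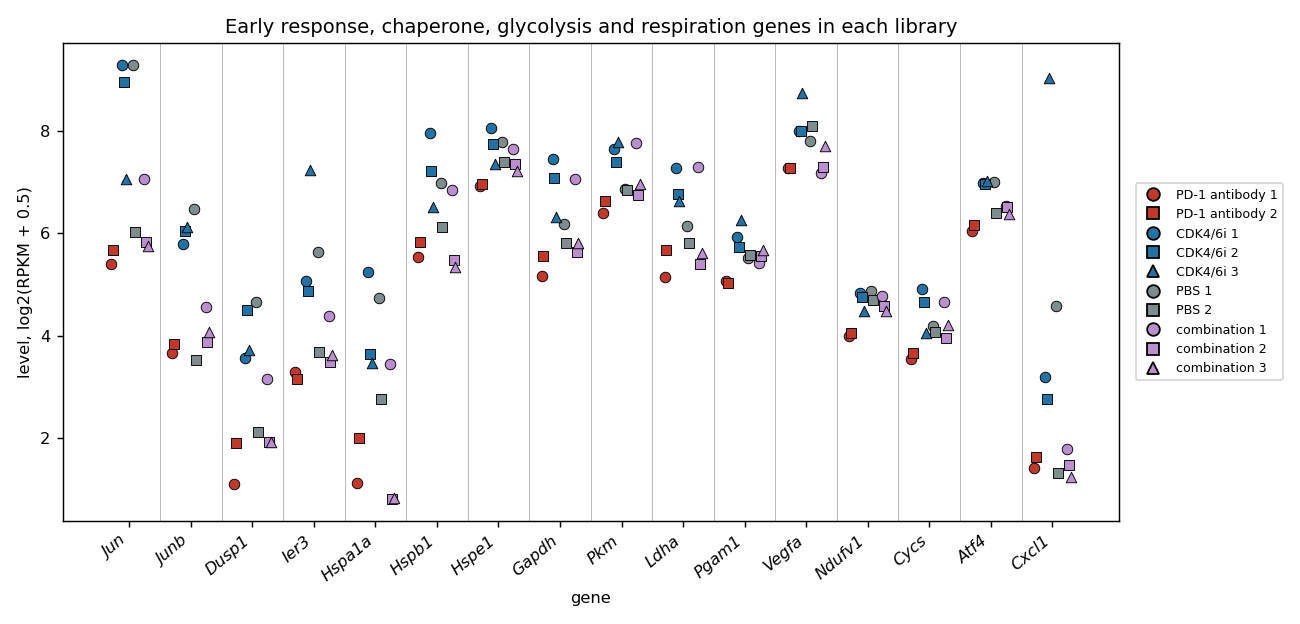
Level of 16 early response, chaperone, glycolysis and respiration genes as log2(RPKM + 0.5), with 1 point per library of all 4 groups. Jun lies at 41.5 and 50.3 RPKM in the antibody libraries, at 132 to 618 RPKM in the inhibitor libraries and at 620 and 64.1 RPKM in the PBS libraries, and Cxcl1 of inhibitor library 3 lies apart at 519 RPKM.

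Glycolysis and hypoxia genes were lower with the antibody in 21 of 22 tested, 13 without overlap (14.9% of all genes). On that side 7 had an unadjusted p under 0.05 (6.29% of all genes). The median was -0.69 (-0.44 without inhibitor sample 3 and -0.99 with it alone). Pgam1, a glycolytic mutase, read 33.2 and 32.0 RPKM against 60.3, 52.3 and 76.1 RPKM, with PBS samples at 45.2 and 47.4 RPKM (log2 difference -0.92, SE 0.18, limma adjusted p = 0.174). Pkm, pyruvate kinase, read 83.9 and 98.0 RPKM against 198, 166 and 219 RPKM (-1.09, SE 0.28, limma adjusted p = 0.273). Vegfa, the vessel growth factor induced by low oxygen, read 154 and 155 RPKM against 256, 253 and 427 RPKM (-0.97, SE 0.27, limma adjusted p = 0.283). In these 3 genes inhibitor sample 3 was the highest of the 5, and the part of muscle RNA was not tested. Gapdh had another order, at 35.6 and 46.3 RPKM against 174, 134 and 79.6 RPKM, the muscle-rich samples being the highest.

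Nuclear genes of the respiratory chain were lower with the antibody in 20 of 22 tested, 12 without overlap (14.9% of all genes). The median was -0.41 (-0.54 without inhibitor sample 3 and -0.17 with it alone). Ndufv1, a subunit of complex I, read 15.5 and 16.1 RPKM against 28.0, 26.3 and 21.8 RPKM (log2 difference -0.66, SE 0.17, limma adjusted p = 0.254), with PBS samples at 28.6 and 25.3 RPKM. Cycs, cytochrome c, read 11.3 and 12.1 RPKM against 29.4, 24.9 and 16.2 RPKM (-0.94, SE 0.28, limma adjusted p = 0.318). Uqcrfs1, a subunit of complex III, read 23.6 and 28.2 RPKM against 67.5, 53.5 and 32.8 RPKM. Inhibitor samples 1 and 2, where muscle genes took 10.9% and 9.67% of reads, were the highest in each, and sample 3 was also above the antibody samples. The part of muscle RNA in these genes was not tested.

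Genes of the unfolded protein and integrated stress responses were 12 higher and 6 lower of 18, with a median of 0.33. Atf4, the factor of the integrated stress response, read 65.3 and 71.3 RPKM against 126, 124 and 129 RPKM, with PBS samples at 127 and 83.3 RPKM (log2 difference -0.88, SE 0.18, limma adjusted p = 0.194). Asns, asparagine synthetase and a target of that factor, read 14.7 and 8.82 RPKM against 3.12, 2.79 and 5.70 RPKM (1.505, SE 0.40, limma adjusted p = 0.276). Herpud1, which acts in the removal of misfolded proteins, read 23.3 and 23.1 RPKM against 11.9, 13.8 and 13.7 RPKM (0.80, SE 0.24, limma adjusted p = 0.324). The groups did not overlap in these 3 genes, and the factor and its target lay on opposite sides. Asns is abundant in pancreas, and antibody sample 1, the richer in pancreatic RNA, was the higher for it. The part of pancreatic RNA in this gene was not tested.

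Lipid synthesis genes gave no common direction. Fatty acid genes were 9 higher and 9 lower of 18 (median 0.06), and so were the cholesterol genes (median 0.01). Mlxipl, the carbohydrate-sensing factor ChREBP, read 3.43 and 4.25 RPKM against 7.70, 7.27 and 5.46 RPKM without overlap (log2 difference -0.74, SE 0.19, limma adjusted p = 0.260). Fasn, fatty acid synthase, read 5.57 and 9.74 RPKM against 6.65, 5.64 and 7.04 RPKM, and the desaturase Scd1 10.9 and 42.1 RPKM against 24.5, 8.36 and 30.2 RPKM, both with overlapping groups and PBS samples above, at 20.6 and 11.1 RPKM for Fasn and 97.7 and 104 RPKM for Scd1.

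Epithelial and mesothelial genes had a positive median of 0.46 over 12 tested of 14 listed, 10 higher and 2 lower. Without overlap were 6, all with the antibody above (14.2% of all genes). Cdh1, E-cadherin, read 5.03 and 4.30 RPKM with the antibody and 0.679, 0.555 and 2.28 RPKM with the inhibitor (log2 difference 1.77, SE 0.59, limma adjusted p = 0.346). Epcam read 6.21 and 5.76 RPKM against 1.12, 1.40 and 1.57 RPKM. Pancreatic epithelium expresses both as well, and pancreas genes took 13.6% and 5.57% of the antibody libraries. The part of pancreatic RNA in Cdh1 and Epcam was not tested. Upk3b, a uroplakin of mesothelium, read 50.6 and 76.0 RPKM against 34.1, 37.2 and 28.5 RPKM (0.90, SE 0.30, limma adjusted p = 0.346), and Lrrn4, another mesothelial gene, read 4.72 and 5.98 RPKM against 2.05, 2.97 and 3.36 RPKM. For all 4 the antibody samples were above every inhibitor sample.

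Vessel endothelium genes were 2 higher and 8 lower of 10 with a median of -0.55, which was -0.16 without the muscle-rich libraries. Samples did not overlap for 1 with the antibody above and 5 with it below (14.9% of all genes lie below). Flt1, a VEGF receptor, read 2.76 and 3.61 RPKM against 4.50, 4.47 and 5.43 RPKM (log2 difference -0.53, SE 0.23, limma adjusted p = 0.444). Kdr, the main VEGF receptor of vessels, lay the other way at 4.90 and 5.21 RPKM against 3.10, 4.11 and 4.06 RPKM. Neither gene overlapped between the groups, and for Kdr all 5 samples were below the PBS samples, at 11.3 and 7.59 RPKM. Fibroblast and collagen genes had a median of 0.30 over 14, which turned to -0.28 without antibody sample 2. Thy1, a surface protein of fibroblasts and T cells, read 22.5 and 25.3 RPKM against 13.0, 14.9 and 16.8 RPKM. Smooth muscle genes had a median of 0.03, adipocyte genes of -0.36, mast cell genes of 0.12 and complement genes of 0.07, and in each of these lists leaving out 1 sample turned the sign.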

How the data were processed

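Total RNA of tumour tissue was extracted with TRIzol and turned into stranded mRNA libraries that were sequenced in pairs on an Illumina instrument, per the labels' protocols, which name 2 library kits without saying which sample had which. The authors deposited 1 table of RPKM values for 32830 genes in 10 libraries, with gene coordinates and lengths. The genome build was GRCm38 (mm10), per the submitters' processing notes, and no source used here gives the aligner, counter or strand setting. Every RPKM value times gene length was a whole multiple of 1 read (tolerance 1e-06, 100% of values), which gave library totals of 25132208 to 36260856 reads.

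Group means of all 4 treatments were fitted with limma 3.58.1 (R 4.3.3) to log2(RPKM + 0.5) of the 19368 genes at 0.5 RPKM or more in at least 2 of 10 samples, with 6 residual degrees of freedom, a mean-variance trend, robust moderation and Benjamini-Hochberg adjustment at 0.05. Replicate pairs differed far beyond sampling noise (23.9 to 532 chi-square units per gene). The comparison, the 38 gene lists (563 distinct tested members) and the alternatives were chosen with earlier results of these data known. Named were up to 12 genes per direction by lowest p averaging 1 RPKM or more where higher (predicted genes may be omitted), a fixed set of genes and up to 4 members of each list by lowest p. Ptf1a, Rbpjl and Ctrb1, and genes of the closing section, were chosen after their values were seen. Lists are described over the members that passed the filter, without a test. A member passing only through the group where it is high had to differ. Replicate numbers, present in the labels, were not taken to pair the samples. Correlations of deviations were -0.35 and 0.30 between same-numbered antibody and inhibitor samples. With 2 antibody samples the deviations mirror each other, so these values cannot show or exclude pairing. Between same-numbered inhibitor and combination samples 1, 2 and 3 they were 0.62, -0.45 and 0.49. The alternatives were pseudocounts, filters, scalings, moderation, a fit of 5 samples, a replicate block, leaving out samples, and voom on recovered reads. Some genes are not reported here. Promoter sequences are RefSeq's, without chromosome 18. Figures were drawn with matplotlib 3.10.9.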

Additional observations from a re-analysis of the deposited data

Results flagged for a closer look

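Pancreatic transcripts also appeared in libraries outside the comparison. In combination sample 2 they took 0.532% of reads and in combination sample 3 2.03%, both more than 10 times the highest PBS library, at 0.00783%. The tissue kallikreins took 0.00903% in combination sample 2 and 0.0271% in combination sample 3, where the highest PBS library had 5.77e-05%. Combination sample 1 held 0.0066% pancreas reads. The comparison of antibody with inhibitor uses these libraries for the spread only.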

How the results depend on the processing

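The count of genes called, 1 in the reported fit, moved with most settings. It was 0 at a pseudocount of 0.1, 10 at a pseudocount of 1, 31 with no filter, 0 with a filter at 1 RPKM, 4 without trend and robust moderation, 0 with the 5 compared samples alone and 0 by voom (smallest adjusted p 0.110, 2374 genes at an unadjusted p under 0.05). The 3 other scalings left it at 1. With the replicate number as a block it was 12, although no source used here says that the numbers pair these samples. Leaving out 1 sample gave 0 to 70: 5 without antibody sample 1, 70 (64 higher, 6 lower) without combination sample 1 and 19 without combination sample 3, 1 without either PBS sample, which was Socs3, lower with the antibody, and 0 without antibody sample 2, combination sample 2 or any inhibitor sample. Without the 3 muscle-rich libraries 84 genes were called, 10 higher and 74 lower, and there inhibitor sample 3 is the lone inhibitor sample, assumed to vary like the other groups. The cause of these moves was not tested.

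Over 22 settings, 139 of 158 named genes never changed direction. The log2 difference reversed without the muscle-rich libraries for Cd274 (-1.22), E2f1 (0.23), Gzmb (-1.11), Prf1 (-0.0277), Ccl21a (0.75), Cxcl10 (-0.91), H2-K1 (-0.54), Scd1 (-0.48) and Acta1 (4.95). It reversed under the replicate block for Cdk6 (0.12), Cxcl13 (0.66) and S100a8 (0.18), and under quantile normalization for Ccne1 (-0.075) and Cxcl10 (-0.034). With 1 sample left out the range crossed 0 for Cdk6 (-0.25 to 0.22), Ccne1 (-0.063 to 0.26), Mcm2 (-0.011 to 0.25), Gzmb (-0.35 to 1.41), Cxcl13 (-1.25 to 1.26), Cxcl10 (-0.45 to 0.62), Scd1 (-0.74 to 1.17), Fasn (-0.19 to 0.57), S100a8 (-1.26 to 0.52), Acta1 (-7.51 to 1.25), Saa3 (-3.16 to 0.84), Il1b (-2.30 to 0.62), Krtdap (-0.13 to 4.90) and Lor (-0.40 to 5.15). Of 38 list medians, 22 kept 1 sign in every setting. With 2 and 3 samples, a difference smaller than the spread within a group could not be shown.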

Other observations

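Antibody sample 2 held genes of skin surface epithelium that no other library had at such a level. Krt15, a keratin of basal epidermis, read 1.35 and 67.5 RPKM in the antibody samples and 1.26, 1.15 and 0.708 RPKM in the inhibitor samples. Lor, the cornified envelope protein loricrin, read 0.143 and 29.6 RPKM against 0.312, 0.803 and 0.0781 RPKM. Krtdap, another gene of differentiating keratinocytes, read 0.421 and 29.5 RPKM against 0.545, 0.702 and 0.307 RPKM. These were called only without antibody sample 1, where sample 2 is the lone antibody sample.

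Inhibitor sample 3 held acute-phase and cytokine genes of the same kind as its chemokines. Saa3, a serum amyloid, read 577 RPKM there, 1.76 and 2.07 RPKM in the other inhibitor samples and 3.48 and 4.16 RPKM in the antibody samples. Lcn2, which binds bacterial iron carriers, read 117 RPKM against 3.78 and 1.57 RPKM, and Il1b read 56.9 RPKM against 0.504 and 1.69 RPKM. Combination sample 1 came next for Saa3 and Lcn2, at 53.8 and 20.5 RPKM, but read 1.28 RPKM for Il1b. Ccl2, a monocyte attractant, read 29.6 RPKM there and 1.28 to 1.81 RPKM in the other 4 libraries. Socs3, which restrains cytokine signalling, was of similar level in the 3 inhibitor samples, at 100, 76.9 and 81.3 RPKM against 10.7 and 8.75 RPKM with the antibody, and the PBS samples were at 143 and 10.1 RPKM. Its log2 difference of -3.08 had an SE of 0.87 (limma adjusted p = 0.292), and the gene was called without PBS sample 1 (limma adjusted p = 0.0448) and without PBS sample 2 (0.0427), where the SE was 0.23.

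Pla2g4c, a phospholipase, read 5.56 and 5.76 RPKM with the antibody against 1.36, 1.63 and 1.41 RPKM with the inhibitor (log2 difference 1.65, SE 0.23, limma adjusted p = 0.0999). The groups did not overlap. It was called without combination sample 1 (limma adjusted p = 0.0180), and PBS sample 2 was near the antibody level, at 5.06 RPKM.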
